A study of Mus musculus with 16 samples.

Results

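The genes described here encode the machinery of the synapse on both of its sides: calcium sensors, vesicle proteins, fusion proteins and active zone scaffolds of the presynaptic terminal, adhesion proteins that span the cleft, and scaffolds of the postsynaptic density. They were chosen by name, as 36 genes, and each was read from the brightest probe set annotated to it alone. Of the 36, 35 were measured among 19938 genes in all. Vamp2 was not, because its probe set is annotated to a second gene as well. Levels are log2 expression values, so that a difference of 1 is a doubling, and they are set side by side between arrays for the same gene and never between genes.

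When an action potential reaches a terminal, calcium binds synaptotagmins on docked vesicles, and the SNARE proteins Snap25, syntaxin and synaptobrevin then drive fusion with the membrane. Complexins hold the SNARE complex ready, Munc13 proteins (the Unc13 genes) prime vesicles, and RIM, Bassoon and Piccolo build the active zone around them. Across the cleft, neurexins bind neuroligins, and PSD-95, Homer and Shank proteins order the receptors of the postsynaptic side. In the brain most of these families hold several genes, and neuron types differ in the ones they use.

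RNA was measured on 16 Affymetrix arrays from 2 brain tissues, the olfactory bulb core (OB) and the subependymal zone (SEZ), the stem cell niche along the lateral ventricle whose neuroblasts migrate to the bulb. The mice were 2.5 months old, with C57BL/6 and CD1 ancestry. The 4 groups were OB cKO (3 arrays, GlastCreERT2/Brg1fl/fl), OB control (5 arrays, GlastCreERT2/Brg1fl/+), SEZ cKO (3 arrays, GlastCreERT2/Brg1fl/fl) and SEZ control (5 arrays, GlastCreERT2/Brg1fl/+, except replicate 5, labelled GlastCreERT2/Brg1+/+). Every animal, controls included, thus carried the tamoxifen-dependent Cre recombinase in the Glast (Slc1a3) locus, which is active in astrocytes and neural stem cells, and all controls but SEZ replicate 5 also carried a floxed copy of Brg1. The labels list no treatment. Brg1 drives SWI/SNF chromatin remodelling with its ATPase, and the design addresses which genes depend on it where adult-born neurons arise and where they settle.

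Smarca4, the gene of Brg1, was at 10.97 to 11.09 in OB cKO and 10.95 to 11.06 in OB control arrays, and at 10.73, 10.62 and 10.77 in SEZ cKO and 10.67 to 10.78 in SEZ control arrays, so the groups overlapped. This probe set is not resolved by exon, so the level checks nothing about the deleted part. Slc1a3 was at 8.85 in OB cKO replicate 3 and at 8.16 in SEZ cKO replicate 3, against 11.16 to 12.27 on the other 14 arrays. Xist, which silences an X chromosome in females, was at 6.08 in OB cKO replicate 1 and at 12.40 in SEZ cKO replicate 1, so these same-numbered arrays are not of the same sex. SEZ control replicates 2 and 4 were high in Slc17a7, which loads glutamate into vesicles in cortex, with 10.58 and 11.06 where the other SEZ arrays had 7.84 to 8.98. Results are given below with and without these arrays where that changes a call.

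The synaptic machinery differed between the tissues by family member. In cKO arrays 26 of the 35 genes differed between OB and SEZ, 15 higher and 11 lower in OB. In control arrays 25 differed, 14 higher and 11 lower. Genes of vesicle clustering and fusion were mostly higher in OB (Syn1, Syn2, Syn3, Syp, Sv2a, Snap25, Stx1a, Cplx1), as were the neurexins and Shank1, whereas Unc13c, Shank3, Syt2, Cplx2, Syt4, Sv2c, Nlgn1, Homer1, Sv2b, Rims1 and Rims2 were lower in OB than in SEZ. Calls are from limma over all genes at an adjusted p under 0.05. Over all 19938 genes 23.1% were called in cKO arrays (10.0% higher, 13.1% lower) and 27.5% in control arrays (12.6% higher, 14.9% lower). Among the 9969 genes above the median level, where 32 of the members lie, 36.3% were called in cKO arrays (16.1% higher, 20.2% lower) and 41.9% in control arrays (20.4% higher, 21.5% lower). The median of the members' differences was 0.17 in cKO and 0.11 in control arrays, against -0.016 and 0.003 over all genes. The size of the difference, without its sign, had a median of 0.52 in cKO and 0.48 in control arrays for the members and of 0.15 and 0.12 for all genes.

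**Figure D1:**
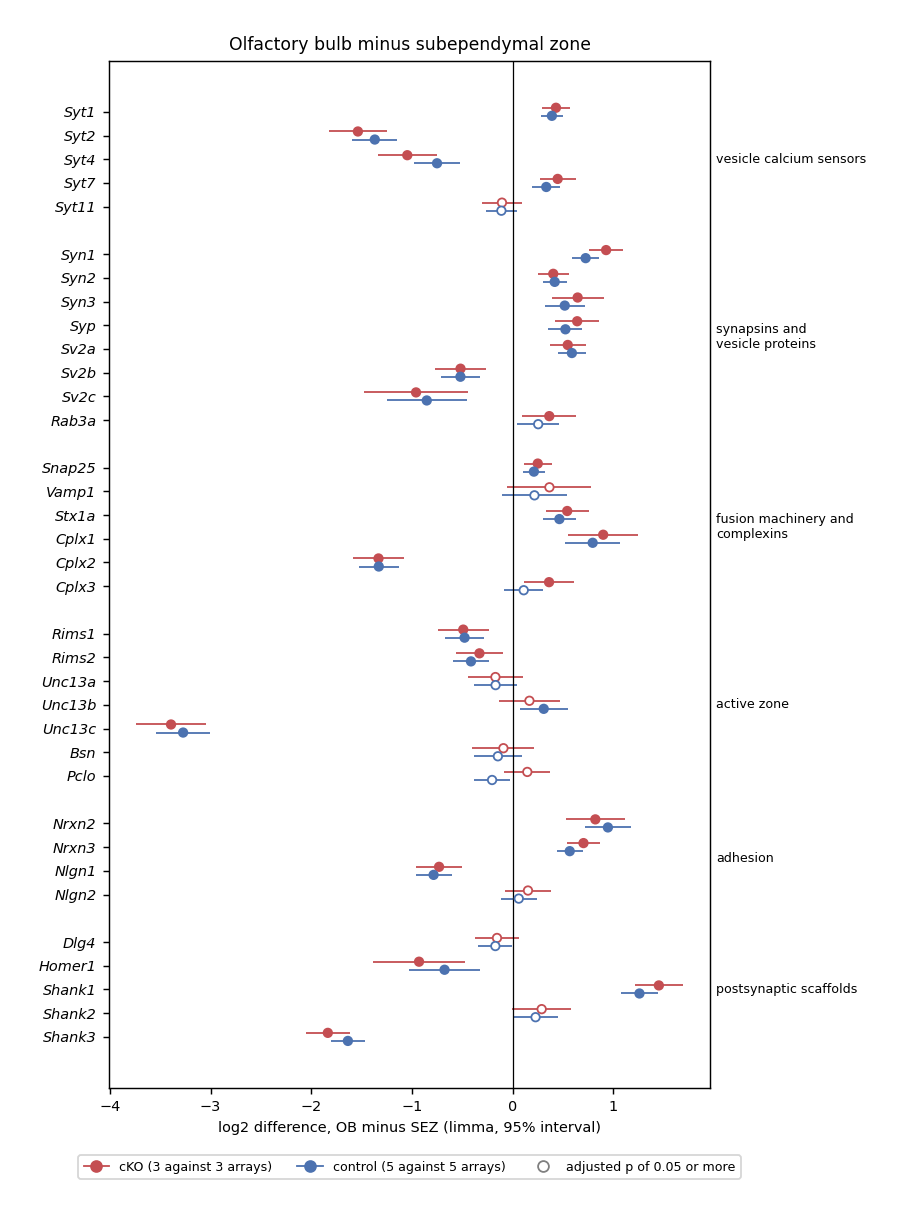
Log2 difference of OB minus SEZ for the 35 measured genes, by role, in cKO (red) and control arrays (blue), with 95% intervals from limma; filled points passed an adjusted p of 0.05. Unc13c lies farthest left at -3.39 and -3.27 and Shank1 farthest right at 1.45 and 1.26.

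The same genes were called in both genotypes for the most part. Of the members, 24 passed in cKO and in control arrays with the same sign, and 0 passed with opposite signs. This overlap was not counted over all genes, so it describes the members and does not set them apart from other genes. Rab3a, a GTPase of docking vesicles, and Cplx3, a complexin first known from retinal ribbon synapses, passed in cKO arrays, at 0.36 (adjusted p = 0.0463) and 0.36 (adjusted p = 0.0338), where control arrays gave 0.25 (adjusted p = 0.0647) and 0.11 (adjusted p = 0.446) and did not pass. Cplx3 was dim, with group means of 6.39 to 6.75 where array medians were 7.45 to 7.65. Like Syt2 and Unc13b, it was not above the median level of all genes. With genotype and replicate number as a fixed block, so that same-numbered OB and SEZ arrays were compared, Rab3a passed in controls too (0.25, adjusted p = 0.00519). It also passed there in some fits without a block, such as array weights (0.32, limma adjusted p = 0.00602) and the fit without SEZ control replicate 3 (0.31, limma adjusted p = 0.0315). Unc13b passed in controls only, at 0.31 (adjusted p = 0.0495), where cKO arrays gave 0.17 (adjusted p = 0.48). These 3 calls lay close to the threshold, and the tissue difference itself did not pass as different between the genotypes for any member. Syt11, Vamp1, Unc13a, Bsn, Pclo, Nlgn2, Dlg4 and Shank2, 8 genes, passed in neither.

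Among the calcium sensors, 4 of 5 synaptotagmins differed, 2 each way. Syt2 and Syt1 are close relatives that both trigger fast release. Syt2 was at 7.04, 7.53 and 7.44 in OB cKO arrays, against 8.96, 8.80 and 8.85 in SEZ cKO arrays, and at 7.31, 7.61, 7.24, 7.56 and 7.29 in OB control arrays, against 8.81, 8.70, 8.52, 8.85 and 8.97 in SEZ control arrays. Every OB array lay below every SEZ array. The log2 difference of OB minus SEZ was -1.54 (SE 0.14, adjusted p = 1.75e-07) in cKO and -1.37 (SE 0.11, adjusted p = 1.91e-08) in control arrays, a level 2.90-fold lower in OB cKO than in SEZ cKO arrays and 2.58-fold lower in OB control than in SEZ control arrays. Syt1 ran the other way with a small spread: 13.75 ± 0.06 in OB cKO and 13.32 ± 0.08 in SEZ cKO arrays (SD, n = 3 each), and 13.72 ± 0.03 in OB control and 13.33 ± 0.04 in SEZ control arrays (SD, n = 5 each). The log2 difference of OB minus SEZ was 0.43 (SE 0.07, adjusted p = 9.71e-05) in cKO and 0.39 (SE 0.05, adjusted p = 1.25e-05) in control arrays. Syt7, the slow sensor of asynchronous release, was higher in OB, by 0.45 in cKO and 0.33 in control arrays. Syt4, a synaptotagmin of dense-core vesicles, was lower in OB (-1.05 in cKO and -0.75 in control arrays). Syt11, which lacks calcium binding, differed by -0.11 in cKO and -0.11 in control arrays and did not pass.

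Of the synapsins and vesicle proteins, all 8 passed in cKO (6 higher, 2 lower in OB) and 7 in control arrays (5 higher, 2 lower). The synapsins tether vesicles in the reserve pool, and all 3 were higher in OB. Syn1 was at 12.78, 12.87 and 12.71 in OB cKO arrays, against 11.76, 11.83 and 11.99 in SEZ cKO arrays, and at 12.67, 12.56, 12.77, 12.66 and 12.71 in OB control arrays, against 11.96, 11.89, 11.89, 12.07 and 11.93 in SEZ control arrays. The OB arrays did not overlap the SEZ arrays. The log2 difference of OB minus SEZ was 0.93 (SE 0.08, adjusted p = 1.51e-07) in cKO and 0.73 (SE 0.06, adjusted p = 8.58e-08) in control arrays. Syn2 was higher by 0.40 in cKO and 0.42 in control arrays, and Syn3 by 0.65 in cKO and 0.52 in control arrays. Synaptophysin (Syp), an abundant vesicle membrane protein, was higher by 0.64 in cKO and 0.52 in control arrays. The SV2 glycoproteins split. Sv2a, the binding site of levetiracetam, was higher in OB (0.55 in cKO and 0.59 in control arrays), whereas Sv2b (-0.52 in cKO and -0.52 in control arrays) and Sv2c (-0.96 in cKO and -0.85 in control arrays) were lower. Sv2c, a form enriched in basal ganglia, had the widest spread within groups of all members, with 10.38, 10.59, 10.09, 11.07 and 11.25 in OB control against 11.22, 11.64, 11.38, 11.75 and 11.64 in SEZ control arrays, and these groups overlapped in 1 OB array.

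In the fusion machinery, 5 of 6 measured genes passed in cKO (4 higher, 1 lower in OB) and 4 in control arrays (3 higher, 1 lower). The plasma membrane SNAREs were modestly higher in OB, Snap25 by 0.25 in cKO and 0.21 in control arrays and Stx1a by 0.54 in cKO and 0.46 in control arrays. The vesicle SNARE gene Vamp1 differed by 0.37 in cKO and 0.22 in control arrays and did not pass, with SDs of 0.19 to 0.35 within groups. The complexins Cplx1 and Cplx2, which bind the assembled SNARE complex, differed in opposite directions. Cplx1 was at 12.78, 12.46 and 12.76 in OB cKO arrays, against 11.70, 11.61 and 11.99 in SEZ cKO arrays, and at 12.69, 12.37, 12.79, 12.46 and 12.38 in OB control arrays, against 12.05, 11.52, 12.05, 11.56 and 11.54 in SEZ control arrays. Cplx2 was at 9.95, 10.12 and 10.32 in OB cKO arrays, against 11.45, 11.55 and 11.39 in SEZ cKO arrays, and at 10.13, 9.84, 10.04, 10.27 and 10.20 in OB control arrays, against 11.21, 11.51, 11.33, 11.54 and 11.53 in SEZ control arrays. For Cplx1 every OB array lay above every SEZ array, and for Cplx2 every OB array lay below. For Cplx1 the log2 difference of OB minus SEZ was 0.90 (SE 0.17, adjusted p = 0.000583) in cKO and 0.80 (SE 0.13, adjusted p = 0.000119) in control arrays. For Cplx2 it was -1.33 (SE 0.12, adjusted p = 2.19e-07) in cKO and -1.33 (SE 0.09, adjusted p = 5.67e-09) in control arrays.

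At the active zone, 3 of 7 genes passed in cKO, all lower in OB, and 4 in control arrays, 1 higher and 3 lower. Unc13c, whose protein Munc13-3 primes vesicles and is best known from the cerebellum, had the largest difference of all members. Unc13c was at 8.69, 7.90 and 8.14 in OB cKO arrays, against 11.79, 11.61 and 11.51 in SEZ cKO arrays, and at 8.41, 8.34, 8.12, 8.10 and 8.19 in OB control arrays, against 11.31, 11.59, 11.32, 11.59 and 11.72 in SEZ control arrays. No OB array came within 2 log2 units of a SEZ array. The log2 difference of OB minus SEZ was -3.39 (SE 0.16, adjusted p = 9.31e-11) in cKO and -3.27 (SE 0.13, adjusted p = 2.99e-12) in control arrays. Unc13c was thus 10.5-fold lower in OB cKO than in SEZ cKO arrays and 9.66-fold lower in OB control than in SEZ control arrays. Unc13a, the main Munc13 of forebrain neurons, differed by -0.17 in cKO and -0.17 in control arrays and did not pass. Unc13b ran slightly the other way, as above. The Unc13b call in controls was lost in 17 of 29 alternative fits, among them the fit without OB control replicate 1, the array with the highest value at 8.75, where the difference was 0.19. Both RIM genes among the members were lower in OB, Rims1 (-0.49 in cKO and -0.48 in control arrays) and Rims2 (-0.33 in cKO and -0.41 in control arrays). The RIM family as a whole did not share this direction. Outside the members, Rims3 (0.54 in cKO and 0.62 in control arrays) and Rims4 (0.32 in cKO and 0.38 in control arrays) passed as higher in OB. The giant scaffolds Bassoon (Bsn, -0.09 in cKO and -0.15 in control arrays) and Piccolo (Pclo, 0.15 in cKO and -0.20 in control arrays) did not pass. For Pclo the adjusted p in controls was 0.0875, and it was 0.0357 without SEZ control replicate 1 and 0.0355 without SEZ control replicate 2.

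**Figure D2:**
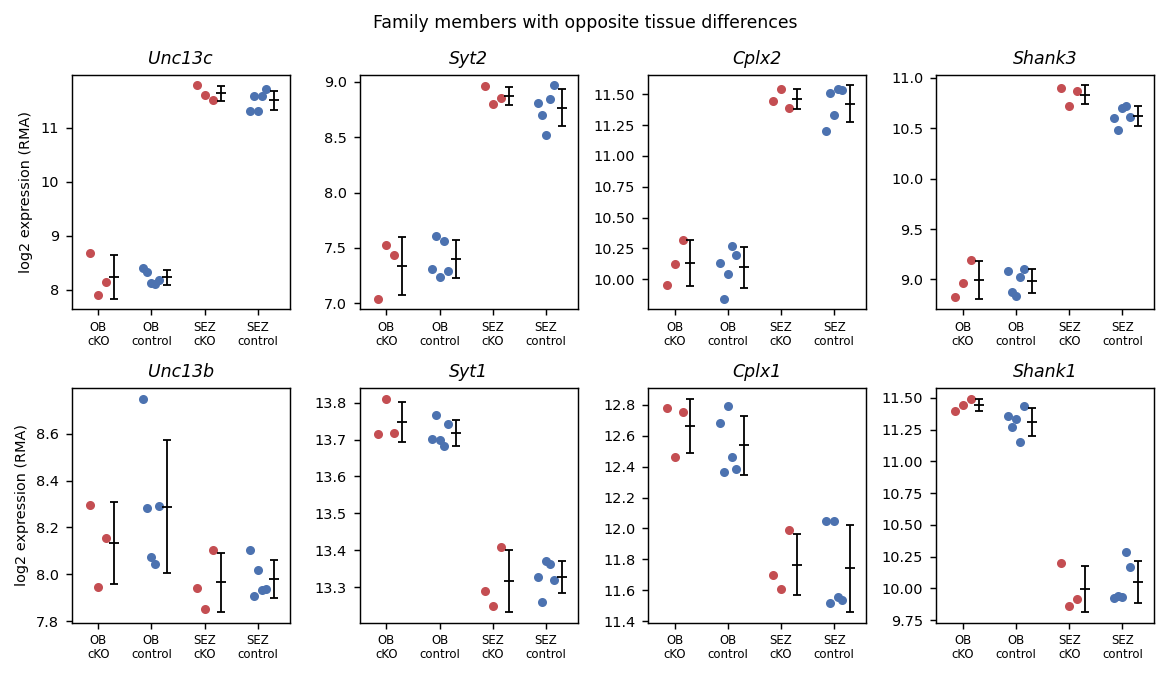
Log2 expression on every array (points; cKO red, control blue) with the mean and SD of each group (black) for 8 genes, in columns by family: Unc13c and Unc13b, Syt2 and Syt1, Cplx2 and Cplx1, Shank3 and Shank1. The upper gene of each column was lower in OB than in SEZ in both genotypes and the lower one was higher in OB, except that Unc13b did not pass in cKO arrays; each panel has its own scale.

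Of the 4 adhesion genes 3 passed in each genotype, 2 higher and 1 lower in OB. The presynaptic neurexins were higher. Nrxn2 was at 11.88, 12.32 and 12.13 in OB cKO arrays, against 11.38, 11.21 and 11.27 in SEZ cKO arrays, and at 11.99, 12.18, 11.96, 12.26 and 12.33 in OB control arrays, against 10.96, 11.33, 10.98, 11.36 and 11.34 in SEZ control arrays. The lowest OB array lay above the highest SEZ array. The log2 difference of OB minus SEZ was 0.82 (SE 0.14, adjusted p = 0.000237) in cKO and 0.95 (SE 0.11, adjusted p = 2.16e-06) in control arrays. Nrxn3 was higher by 0.70 in cKO and 0.57 in control arrays. Of their postsynaptic partners, Nlgn1, the neuroligin of excitatory synapses, was lower in OB (-0.73 in cKO and -0.78 in control arrays), and Nlgn2, that of inhibitory synapses, differed by 0.15 in cKO and 0.06 in control arrays and did not pass.

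Of the 5 postsynaptic scaffolds 3 passed in each genotype, 1 higher and 2 lower in OB. Shank proteins form the deep layer of the postsynaptic density, where they bind Homer and the PSD-95 partners. Shank1 was at 11.40, 11.44 and 11.50 in OB cKO arrays, against 10.20, 9.87 and 9.92 in SEZ cKO arrays, and at 11.36, 11.27, 11.34, 11.15 and 11.43 in OB control arrays, against 9.93, 9.94, 9.93, 10.29 and 10.17 in SEZ control arrays. Shank3 was at 8.83, 8.97 and 9.19 in OB cKO arrays, against 10.90, 10.72 and 10.87 in SEZ cKO arrays, and at 9.09, 8.87, 8.84, 9.02 and 9.10 in OB control arrays, against 10.60, 10.48, 10.70, 10.72 and 10.61 in SEZ control arrays. Shank1 was higher and Shank3 lower in OB, with no overlap between the tissues for either gene. For Shank1 the log2 difference of OB minus SEZ was 1.45 (SE 0.11, adjusted p = 2.96e-08) in cKO and 1.26 (SE 0.09, adjusted p = 4.11e-09) in control arrays, which is 2.74-fold and 2.39-fold. For Shank3 it was -1.84 (SE 0.10, adjusted p = 5.92e-10) in cKO and -1.64 (SE 0.08, adjusted p = 5.37e-11) in control arrays, which is 3.57-fold and 3.11-fold lower. Homer1, which links metabotropic glutamate receptors to Shank, was lower in OB (-0.93 in cKO and -0.68 in control arrays). Dlg4, the gene of PSD-95, differed by -0.15 in cKO and -0.17 in control arrays and did not pass.

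Shank2 depended on the probe set. Its brightest probe set, used above, was at 9.65 in OB cKO and 9.36 in SEZ cKO, and at 9.57 in OB control and 9.34 in SEZ control arrays, and did not pass. Its other 2 probe sets, annotated to a predicted transcript alone, were lower in OB, with log2 differences in controls of -0.75 and -0.87 (adjusted p over probe sets 6.77e-06 and 5.04e-08) and in cKO arrays of -0.89 and -0.97. The mean over all 3 probe sets was therefore lower in OB, at -0.52 in cKO and -0.47 in control arrays, a reversal of the sign. Unc13c, in contrast, was lower in OB on all 7 of its probe sets, with log2 differences in controls from -3.88 to -2.48. The 3 probe sets of Unc13a differed in sign, from -0.17 to 0.27, and none passed. The other 32 members had 1 probe set each, so that a difference between their transcripts could not be seen.

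**Figure D3:**
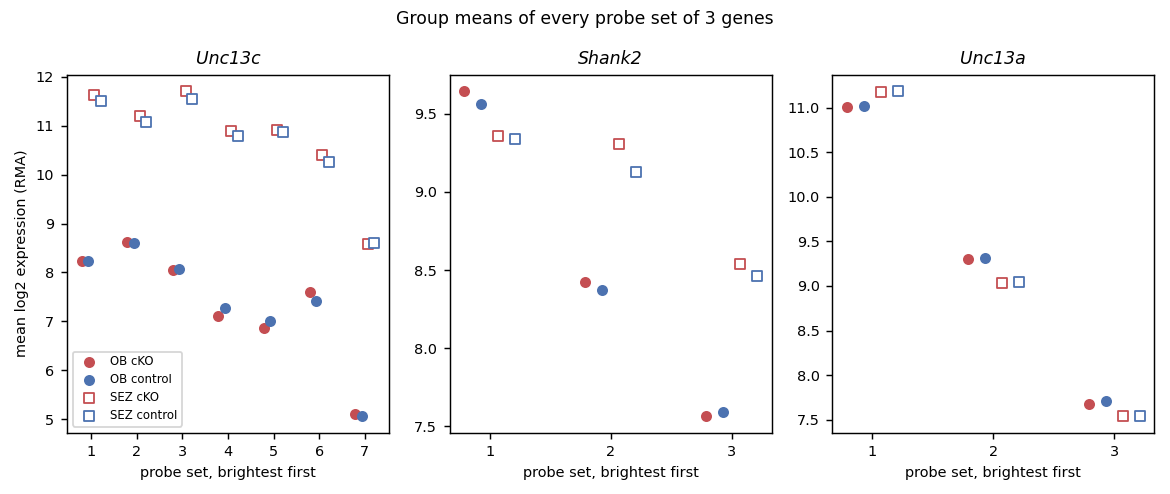
Mean log2 expression of each probe set of Unc13c (7), Shank2 (3) and Unc13a (3) in the 4 groups, brightest probe set first; circles are OB and squares SEZ, red cKO and blue control. All Unc13c probe sets lie lower in OB, whereas the first Shank2 probe set lies higher in OB and its other 2 lie lower.

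Promoter windows are shown for 6 members: Cplx1 with Cplx2, Unc13c with Unc13a, and Syn1 with Nlgn1. They include all 3 member windows that hold the RE1 letters given below, those of Unc13a, Syn1 and Nlgn1. For Nlgn1 only that window of its 2 is printed. The printed windows are thus not typical of the members in this motif. RefSeq windows (GRCm38.p6) of 250 bases before to 50 after an annotated start were held for 27 members, 40 windows in all. They were searched on both strands for the cyclic AMP response element TGACGTCA, the GC box GGGCGG, the TATA element TATAAA and TTCAGCACC, the left part of the RE1 site that binds REST, a repressor of neuronal genes in other cells. The motifs do not overlap each other in the windows printed, where their letters are in capitals and the first letter is the 5′ end on the strand of the gene.
Cplx1, chr5:108549978-108550277, minus strand: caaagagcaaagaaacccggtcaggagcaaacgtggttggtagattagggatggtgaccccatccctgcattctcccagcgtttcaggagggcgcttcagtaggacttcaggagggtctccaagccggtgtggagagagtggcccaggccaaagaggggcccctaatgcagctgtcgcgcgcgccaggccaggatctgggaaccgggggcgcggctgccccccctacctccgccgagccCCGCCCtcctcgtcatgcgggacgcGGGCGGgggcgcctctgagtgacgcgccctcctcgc
Cplx2, chr13:54302306-54302605, plus strand: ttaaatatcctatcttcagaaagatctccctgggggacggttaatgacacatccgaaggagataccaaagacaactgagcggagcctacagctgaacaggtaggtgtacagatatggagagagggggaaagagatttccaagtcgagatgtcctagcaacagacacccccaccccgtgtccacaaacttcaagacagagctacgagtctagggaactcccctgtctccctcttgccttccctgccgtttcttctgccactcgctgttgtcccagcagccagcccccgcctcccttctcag
Unc13c, chr9:73968988-73969287, minus strand: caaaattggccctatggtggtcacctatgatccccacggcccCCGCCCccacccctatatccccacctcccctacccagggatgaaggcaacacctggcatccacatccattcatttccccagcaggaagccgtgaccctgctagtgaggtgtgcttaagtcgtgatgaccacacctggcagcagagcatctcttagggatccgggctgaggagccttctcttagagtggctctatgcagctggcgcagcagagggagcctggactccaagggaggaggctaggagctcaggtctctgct
Unc13a, chr8:71671708-71672007, minus strand: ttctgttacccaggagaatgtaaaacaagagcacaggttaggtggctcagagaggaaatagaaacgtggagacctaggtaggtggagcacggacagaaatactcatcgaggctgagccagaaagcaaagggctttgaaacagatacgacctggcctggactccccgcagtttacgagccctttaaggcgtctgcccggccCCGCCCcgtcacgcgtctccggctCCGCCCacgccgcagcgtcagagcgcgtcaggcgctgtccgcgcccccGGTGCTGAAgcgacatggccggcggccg
Syn1, chrX:20920869-20921168, minus strand: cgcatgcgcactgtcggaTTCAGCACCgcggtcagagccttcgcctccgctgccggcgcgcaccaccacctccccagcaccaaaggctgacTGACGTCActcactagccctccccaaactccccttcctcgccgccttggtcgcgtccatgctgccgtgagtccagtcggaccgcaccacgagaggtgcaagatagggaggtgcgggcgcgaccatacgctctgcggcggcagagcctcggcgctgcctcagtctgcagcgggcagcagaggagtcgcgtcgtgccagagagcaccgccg
Nlgn1, chr3:26153937-26154236, minus strand: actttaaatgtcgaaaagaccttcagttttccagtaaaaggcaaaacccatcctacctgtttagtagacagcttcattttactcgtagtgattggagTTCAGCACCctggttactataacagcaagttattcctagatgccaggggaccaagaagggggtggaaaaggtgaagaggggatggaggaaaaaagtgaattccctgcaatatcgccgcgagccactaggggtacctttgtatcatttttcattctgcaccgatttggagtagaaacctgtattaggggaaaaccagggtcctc

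The Cplx1 window holds 24 CpG dinucleotides and 2 GC boxes, and the Cplx2 window 9 CpG and none of the 4 motifs. Unc13c holds 6 CpG and Unc13a 27. The RE1 letters occurred in 3 of the 40 windows (7.5%), those of Syn1, Unc13a and 1 of the 2 windows of Nlgn1, against 0.371% of 32851 windows of all genes. These genes lay on different sides of the tissue contrast, Syn1 higher in OB, Nlgn1 lower and Unc13a not called. The GC box was in 55% of member windows and in 35.7% of all, and the cyclic AMP element in 1 member window, that of Syn1 (2.5%, against 1.79% of all). The median CpG count was 17 in windows of members higher in OB in controls (13 windows), 10 in those of members lower in OB (15 windows), 17 in those of members not called (12 windows) and 7 over all windows. A match is no evidence of binding.

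Other genes of the same machinery, outside the 36, also differed in both directions. Of 61 measured genes from a list of 66, 40 passed in cKO (28 higher, 12 lower in OB) and 47 in control arrays (33 higher, 14 lower). On the log2 scale the largest differences upward in OB in controls were in Homer2 (2.86), another Homer scaffold, the secreted synapse organisers Cbln1 (2.78) and Cbln2 (2.68), which bind neurexins, and Slc17a6 (1.90), a vesicular glutamate transporter. In the cKO arrays these differences were 2.91, 2.78, 2.61 and 1.94. The largest downward were in Doc2b (-3.11), a calcium sensor of spontaneous release, Rph3a (-1.45), a Rab3 effector, Dlgap3 (-1.02), a scaffold that joins PSD-95 to Shank and is enriched in striatum, and Slc17a8 (-0.91), another glutamate transporter. In the cKO arrays they were -2.98, -1.66, -1.07 and -1.19.

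Cell type markers also differed between the tissues, some lists in 1 direction and others in both. All 5 measured markers of striatal projection neurons were lower in OB in both genotypes, with list means of 7.92 to 8.29 in OB cKO and 12.53 to 12.70 in SEZ cKO arrays, and of 8.20 to 8.40 in OB control and 12.48 to 12.68 in SEZ control arrays. All 5 bulb interneuron markers were higher in OB, with list means of 11.42 to 11.48 in OB cKO and 6.75 to 7.21 in SEZ cKO arrays, and of 11.28 to 11.59 in OB control and 6.92 to 7.21 in SEZ control arrays. All 5 mitral and tufted cell markers were higher and all 5 myelin markers lower in OB. All 5 ependymal markers and 3 of 5 microglial markers were lower in OB in both genotypes, and of the 6 neuroblast markers 4 were higher in cKO and 5 in control arrays. Of 5 astrocyte markers 1 was higher and 1 lower in OB in each genotype. Of 5 measured cortical excitatory markers 2 were higher in cKO arrays, and 1 was higher and 1 lower in control arrays. Of 3 measured endothelial markers 1 was lower in cKO and 2 in control arrays, and of 4 choroid plexus markers 2 and 3. The mean of the 6 general neuron markers was close between the tissues while its members moved both ways, 2 higher and 2 lower in OB in cKO and 2 higher and 1 lower in control arrays, with list means of 11.32 to 11.58 in OB cKO, 11.38 to 11.46 in SEZ cKO, 11.33 to 11.51 in OB control and 11.36 to 11.50 in SEZ control arrays. The part of these cell types in the members' differences was not tested, and in bulk tissue fewer cells of a type cannot be told apart from less RNA per cell. With SEZ control replicates 2 and 4 left out, in which cortical markers were high, 24 members passed in cKO and 24 in control arrays. In cKO arrays Rab3a (adjusted p = 0.0527) and Rims2 (adjusted p = 0.0529) then missed the threshold. In controls Homer1 (-0.56, adjusted p = 0.0502) and Unc13b (0.27, adjusted p = 0.192) missed it and Dlg4 passed (-0.26, adjusted p = 0.0406). With both cKO arrays numbered 1 left out, 19 members passed in cKO, 12 higher and 7 lower in OB, and Sv2c, Rab3a, Snap25, Cplx3, Rims1, Rims2 and Homer1 did not. With both cKO arrays numbered 3 left out, in which Slc1a3 was low, 22 passed in cKO, 13 higher and 9 lower, and Sv2c, Rab3a, Cplx3 and Rims2 did not. In either of these fits Unc13b also missed the threshold in controls (adjusted p = 0.0612 and 0.0631).

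No member passed between cKO and control arrays in either tissue. In OB, 0 of 35 members passed in cKO against control arrays, where 9 of all genes did (0.0451%). There 1 member had an unadjusted p under 0.05, as had 700 of all genes. In SEZ, 0 of 35 passed, where 0 of all genes did (0.00%), and again 1 member had an unadjusted p under 0.05, as had 492 of all genes. The members' differences ranged from -0.17 to 0.26 in OB, with a median of 0.027 (all genes -0.005), and from -0.11 to 0.25 in SEZ, with a median of -0.005 (all genes 0.004). The 95% intervals of all members together spanned -0.58 to 0.54 in OB and -0.48 to 0.64 in SEZ, and the median width of an interval was 0.445, so that small changes of single genes were not detectable with these arrays.

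**Figure D4:**
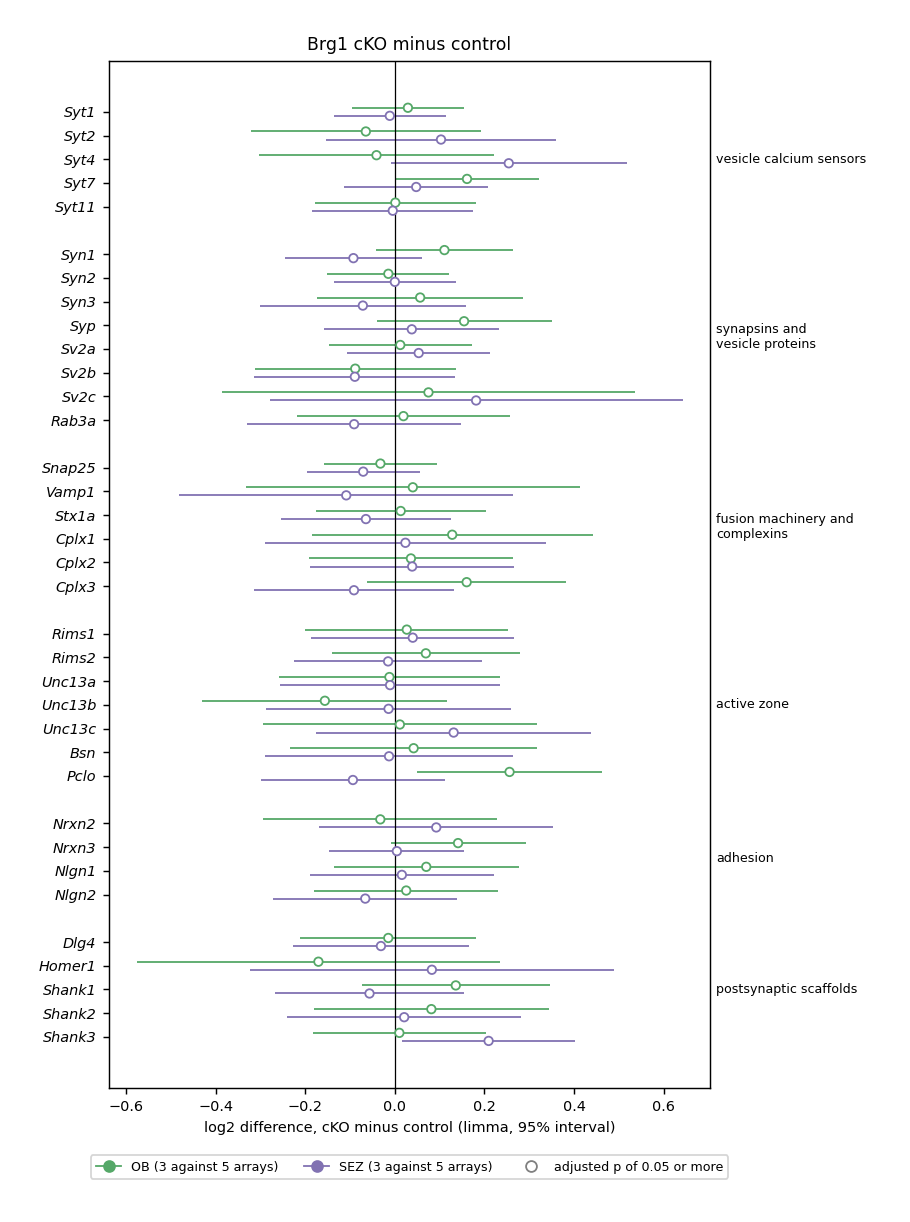
Log2 difference of cKO minus control for the 35 genes, by role, in OB (green) and SEZ (purple), with 95% intervals from limma. Every point is open because none passed; Pclo in OB (0.26) and Syt4 in SEZ (0.25) lie farthest from 0.

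In OB the smallest p was that of Pclo, the active zone scaffold. It was at 11.50, 11.33 and 11.36 in OB cKO arrays, against 11.16, 11.23, 10.98, 11.05 and 11.28 in OB control arrays. The 3 cKO values lay above the 5 control values. The log2 difference was 0.26 (SE 0.10, unadjusted p = 0.018, limma adjusted p = 1). In SEZ Pclo was at 11.24, 11.18 and 11.33 in cKO arrays, against 11.16, 11.14, 11.52, 11.48 and 11.42 in control arrays, which overlapped (-0.09, SE 0.10). The next in OB were Syt7 (0.16), Nrxn3 (0.14), Syp (0.15) and Syn1 (0.11), with unadjusted p from 0.0504 to 0.146.

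In SEZ the smallest p was that of Shank3, at 10.90, 10.72 and 10.87 in SEZ cKO arrays, against 10.60, 10.48, 10.70, 10.72 and 10.61 in SEZ control arrays. All cKO values lay above the control values, though the nearest pair was almost level. The log2 difference was 0.21 (SE 0.09, unadjusted p = 0.0359, limma adjusted p = 1). Syt4 came next, at 11.16, 11.13 and 11.02 in SEZ cKO arrays, against 10.78, 10.88, 10.69, 10.98 and 10.92 in SEZ control arrays with no overlap (0.25, SE 0.12, unadjusted p = 0.0573). Syn1 (-0.09), Snap25 (-0.07) and Pclo (-0.09) followed, with unadjusted p from 0.22 to 0.35. The neuroblast markers, in contrast, stood apart by genotype in their list mean in both tissues. It was 10.21 to 10.54 in OB cKO and 11.04 to 11.41 in OB control arrays. In SEZ it was 9.23 to 9.29 in cKO and 9.42 to 10.00 in control arrays. In OB 2 of 6 passed. Prokr2, the prokineticin receptor of migrating neuroblasts, was 3.79-fold lower (limma adjusted p = 0.000629). Cd24a, a surface protein of neuroblasts, was 2.83-fold lower (limma adjusted p = 0.00525). The others did not pass in OB, with differences of -0.89 (Sox11), -0.32 (Dcx), -0.20 (Dlx2) and -0.08 (Dlx1). In SEZ 0 of 6 passed. The part of the neuroblast markers in the members' values was not tested.

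The effect of the knockout did not pass as different between the tissues for any member (0 of 35, with 1 of all genes, 0.00502%). An unadjusted p under 0.05 was found for 1 member and for 296 of all genes. The smallest p was that of Pclo, whose SEZ effect minus its OB effect was -0.35 (SE 0.14, unadjusted p = 0.0216, limma adjusted p = 1). Syn1 followed at -0.20, Cplx3 at -0.25, Syt4 at 0.30 and Shank3 at 0.20. Of the 61 other synaptic genes 0 passed in either tissue or for the difference between them, and 1 had an unadjusted p under 0.05 in each of these comparisons.

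Within groups the members varied about as much as other genes, with a median SD of 0.15 against 0.14 over all genes. The steadiest were Syt1 (0.052), Snap25 (0.054) and Syn2 (0.066), and the most variable were Sv2c (0.34), Homer1 (0.30), Vamp1 (0.27) and Cplx1 (0.22). Some members kept the order of the control replicates across the tissues. Cplx1 was at 12.69, 12.37, 12.79, 12.46 and 12.38 in OB control replicates 1 to 5 and at 12.05, 11.52, 12.05, 11.56 and 11.54 in SEZ control replicates 1 to 5, so that replicates 1 and 3 were highest in both. Homer1 ran the other way, at 9.67, 10.05, 9.71, 10.24 and 10.50 in OB control and 10.41, 10.81, 10.43, 10.97 and 10.94 in SEZ control arrays, with replicates 1 and 3 lowest in both. Replicates 1 and 3 were the extreme pair in both tissues for 14 of the 35 members, highest for Syp, Rab3a, Cplx1 and Dlg4 and lowest for Syt4, Syt7, Syt11, Syn2, Sv2c, Rims1, Unc13a, Bsn, Nrxn2 and Homer1. The same held for 13 of the 61 other synaptic genes and for 24% of all genes. The pair was picked after its values were seen, so this is a description without a test, and replicates 1 and 3 differ in sex by Xist (12.33 and 6.17 in OB, 11.82 and 5.99 in SEZ).

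**Figure D5:**
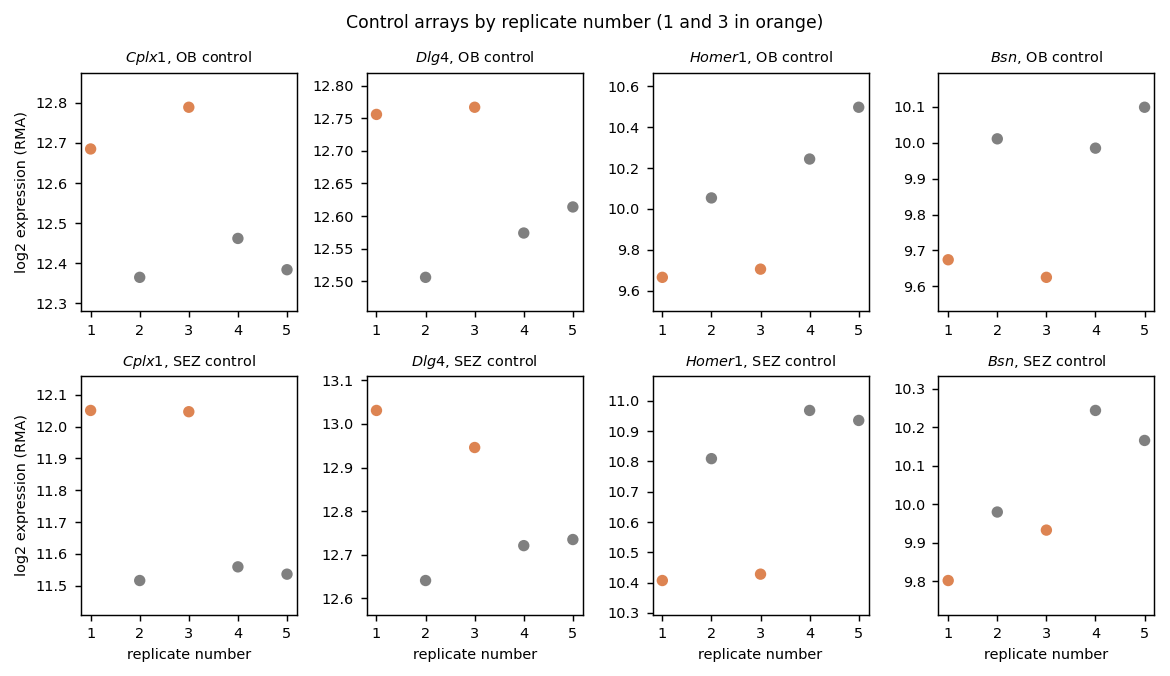
Log2 expression of Cplx1, Dlg4, Homer1 and Bsn in the OB (top) and SEZ (bottom) control arrays by replicate number, with replicates 1 and 3 in orange; each panel has its own scale. Replicates 1 and 3 are highest for Cplx1 and Dlg4 and lowest for Homer1 and Bsn in both tissues.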

How the data were processed

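The authors deposited log2 expression values per probe set. RMA and Affymetrix Expression Console 1.2 are named in the submitters' processing notes. Neither these notes nor the labels used here give a genome build. Per the labels' protocols, RNA was extracted with a column kit with DNase treatment. Of 35556 probe sets, 21789 had 1 gene symbol, 1621 several and 12146 none. Probe sets with 1 symbol were kept and the brightest per gene was used (19938 genes). No symbol changed through the RefSeq gene table. Array medians were 7.45 to 7.65, and the number of arrays limits the precision.

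All 16 arrays were fitted with limma 3.58.1 in R 4.3.3 (lmFit, eBayes) in 4 groups with no covariate, two-sided, with Benjamini-Hochberg adjustment across the 19938 genes and a threshold of 0.05. Sex was not in the fit. By Xist it was mixed within every group. Xist was high in OB cKO replicate 2 (12.58), SEZ cKO replicates 1 and 2 (12.40 and 12.33) and control replicates 1 and 4 of both tissues (11.82 to 12.44). On the other arrays it was at 5.725 to 6.80. The cKO tissue contrast and the knockout contrasts were thus not balanced for sex, and its part was not tested. The labels call the samples biological replicates. Whether same-numbered OB and SEZ arrays come from 1 animal is not given, and p-values treat them as separate. After group means were removed, the 5 same-numbered control pairs correlated from 0.17 to 0.57. OB control replicate 1 correlated best with a SEZ control array of another number. By the labels replicate 5 was GlastCreERT2/Brg1fl/+ in OB and GlastCreERT2/Brg1+/+ in SEZ, so these arrays are not of 1 animal as labelled. The pairing is thus only partly borne out, and the block is given where it changes a call. The fit was tested on simulated data with independent arrays and shifts seeded in OB control arrays alone. That simulation covers neither paired arrays nor the contrasts with cKO arrays. Members, lists and alternatives were chosen with earlier results of these data known. All measured members are named. Other synaptic genes were named as the 4 with the largest called difference each way in controls, with Rims3 and Rims4 added beside the RIM members. For knockout contrasts the members with the 5 smallest p were named. Alternatives covered normalization, dim genes, probe sets, variance models, array weights, blocks and left-out arrays.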

Additional observations from a re-analysis of the deposited data

Results flagged for a closer look

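Of 70 groups of 5 control arrays examined, 1 held an array far from the others, and chance marks about 1 group in 20. Sv2b was at 12.23 in SEZ control replicate 4, against 11.90 to 11.99 in the other SEZ control arrays, so that its gap took up 0.737 of the group's range, above the critical value of 0.71. Slc17a7 was also highest among the SEZ arrays there, at 11.06. The part of that array's cortical markers in the Sv2b value was not tested.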

How the results depend on the processing

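Members called for OB minus SEZ numbered 23 to 26 in cKO and 24 to 27 in control arrays when each of the 16 arrays was left out in turn, and the knockout contrasts had 0 calls in every alternative run for them. The fixed block by genotype and number cannot give the contrast within a tissue, and the fit on the compared arrays alone was not a separate one for the difference between tissues. Of the members called, 19 of 26 in cKO and 23 of 25 in controls passed in every fit that held them. The calls lost in some fit were those of Sv2c, Rab3a, Snap25, Cplx3, Rims1, Rims2 and Homer1 in cKO and of Unc13b and Homer1 in controls. Calls on 3 against 3 arrays rested on single arrays for Rims2, Rab3a and Cplx3, with an adjusted p up to 0.209 (Rims2 without SEZ cKO replicate 1), 0.178 (Rab3a without OB cKO replicate 3) and 0.159 (Cplx3 without OB cKO replicate 3). With array weights 28 members were called in control arrays, with Rab3a, Pclo and Unc13a (-0.24, limma adjusted p = 0.0482) among them. With a difference of at least 0.5 required, 9 members were higher in OB in cKO and 8 in control arrays. With both cKO arrays numbered 1 left out, 7 were lower in OB in cKO arrays, a fit with 2 against 2 arrays. With the mean of all probe sets, Shank2 reversed to -0.52 in cKO and -0.47 in control arrays, as its probe sets disagree.

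With the replicate number as a block, which also joins cKO and control arrays of 1 number, 26 members were called in cKO and 26 in control arrays. The forms by genotype and number gave the same counts. The block added Rab3a in controls (adjusted p 0.00511 to 0.0267 over the 3 forms) and changed no other member's call. The same-numbered cKO arrays correlated at -0.06 for replicates 1, 0.25 for replicates 2 and 0.39 for replicates 3. Replicates 1 differ in sex by Xist and so do not pair. Replicates 2 and 3 lay within the range of the control pairs, though OB cKO replicate 2 correlated best with another number.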
